A study of Mus musculus with 6 samples.

Results

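Replication-dependent histone genes encode the linker histone H1 and the core histones H2A, H2B, H3 and H4, and 59 of the 15553 genes listed in the deposited table belong to them. Every gene whose symbol begins with Hist1, Hist2, Hist3 or Hist4 was taken. The choice of these members was made with earlier results of these data known. The class in the symbol gave 5 H1, 17 H2A, 17 H2B, 10 H3 and 10 H4 genes. The Hist1 cluster on mouse chromosome 13 (mm10) holds 49 of them, the Hist2 cluster on chromosome 3 holds 6, Hist3 on chromosome 11 holds 3, and Hist4h4 on chromosome 6 is the last. Of the 59, Hist1h2aj and Hist3h2bb-ps are annotated as pseudogenes.

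RNA was sequenced from mouse haematopoietic stem cells of 2 genotypes with 3 libraries each, and the question was what loss of the Polycomb group protein YY1 does in these cells. The wild type group was Mx1-Cre and the knockout group Yy1f/f;Mx1-Cre, both C57BL/6 and 6 to 8 weeks old, so both groups carried the interferon-inducible Cre. The labels name CD150+ cells in the sample source and both CD150+ and CD150- in the sorting protocol. They do not say whether each library came from its own mouse or which part of Yy1 was removed. A p-value here is set by differences among libraries that may be technical in part.

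Read steps in the RPKM values (reads scaled to gene length and library size) gave library sizes of 12920190, 16112105 and 14786847 in wild type. In knockout they were 17402756, 17496160 and 19535460. Every knockout library was thus deeper than every wild type library, and depth cannot be told apart from genotype. Reads recovered in the listed genes came to more, 15102983 to 21757039. These sums include genes whose annotated length did not give whole reads. The sums, the sizes or both may thus differ from the read totals. Yy1 measured 31.6, 42.3 and 52.1 RPKM in wild type, against 36.2, 16.6 and 28.5 in knockout. The library labelled Yy1 knockout replicate 1 thus lay within the wild type range, and Yy1 did not pass the test (log2 fold change -0.66, limma adjusted p = 0.680). Wild type replicate 3 listed 1991 genes at 0, against 373 to 1099 in the other libraries. Summed RPKM of 8 stem cell markers was 492 to 556 in wild type and 334 to 370.4 in knockout libraries. The 7 megakaryocyte markers summed to 21.3 to 36.6 against 52.8 to 113, the 5 of 8 erythroid markers listed to 35.6 to 54.6 against 44.4 to 138, and the 7 of 8 granulocyte markers to 17.7 to 144 against 31.4 to 259.9. The 3 of 7 monocyte markers listed summed to 84.1 to 129.8 against 71.2 to 109, the 1 of 6 of B cells to 13.3 to 28.6 against 9.15 to 21.4, and the 2 of 6 of T and NK cells to 4.76 to 18 against 3.99 to 9.11. The part of these cell types in the values below was not tested, and in bulk libraries a change in the number of cells of a type cannot be told apart from a change in RNA per cell.

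A cell must package each new stretch of DNA during S phase, and it draws the histones for this from these clustered, mostly intronless genes. Their transcription is driven by cyclin E and CDK2 acting on the coactivator NPAT at histone locus bodies. Their messages end in a conserved stem-loop in place of a poly(A) tail; SLBP binds it, the U7 particle directs the cut behind it, and the message is degraded when replication stops. Quiescent stem cells divide rarely, and histone messages of this kind are generally low outside S phase. Some members also give polyadenylated messages, mainly in differentiated cells.

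The stem-loop is shown for representatives of each class because it marks the end of the family's messages and its letters differ by class. A stem of 6 paired bases around a loop of 4 bases, matching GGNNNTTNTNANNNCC on the transcript strand, was found in the annotated transcripts of 40 of the 59 members (67.8%). The same search found it in 79 of 55450 genes of the annotation (0.142%). Below, capitals mark the stem-loop and lower case the 5 bases on each side, with T for U.

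Hist1h1c (H1): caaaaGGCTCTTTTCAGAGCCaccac
Hist1h1e (H1): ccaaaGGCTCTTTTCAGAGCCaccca
Hist1h2ao (H2A): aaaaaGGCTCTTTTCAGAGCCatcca
Hist2h2ac (H2A): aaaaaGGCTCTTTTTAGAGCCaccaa
Hist1h2bk (H2B): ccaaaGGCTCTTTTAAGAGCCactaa
Hist1h2bm (H2B): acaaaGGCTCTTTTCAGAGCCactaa
Hist1h3a (H3): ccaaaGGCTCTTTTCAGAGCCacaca
Hist1h3e (H3): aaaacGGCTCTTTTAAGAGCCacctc
Hist1h3g (H3): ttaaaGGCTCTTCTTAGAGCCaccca
Hist1h4d (H4): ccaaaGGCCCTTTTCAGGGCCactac
Hist1h4i (H4): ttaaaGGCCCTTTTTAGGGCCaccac

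The form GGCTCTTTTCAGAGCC occurred in 24 members, 3 of H1, 9 of H2A, 8 of H2B and 4 of H3. The H4 genes held other stems: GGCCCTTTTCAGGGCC in 6 and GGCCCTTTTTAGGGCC in 2. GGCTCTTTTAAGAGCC was found in 3 H3 and 2 H2B genes. For the other 19 members the annotated model contains no such match, which says only that these letters are not in the model.

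Promoters are shown for 6 members because family members share short control elements whose presence differs by class. RefSeq promoter entries (GRCm38.p6) matched 51 of the 59 members, and the 250 bases before each start were searched on both strands for 6 motifs. Capitals below mark a match to TATAA (TATA box), CCAAT, ATTTGCAT (octamer), AAACACA (H1 box), TTTNGCGC (E2F type) or GCCATNTT (YY1 type), in either orientation. The Hist1h2ap entry is printed only where it lies outside the gene model, which leaves 218 bases.

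Hist1h1b, chr13:21780626-21780875, minus strand: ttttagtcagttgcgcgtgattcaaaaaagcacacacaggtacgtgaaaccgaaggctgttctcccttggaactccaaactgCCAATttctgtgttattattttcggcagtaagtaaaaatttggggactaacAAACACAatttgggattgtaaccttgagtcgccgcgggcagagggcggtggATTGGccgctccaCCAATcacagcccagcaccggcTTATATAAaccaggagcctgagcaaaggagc
Hist1h1c, chr13:23738557-23738806, plus strand: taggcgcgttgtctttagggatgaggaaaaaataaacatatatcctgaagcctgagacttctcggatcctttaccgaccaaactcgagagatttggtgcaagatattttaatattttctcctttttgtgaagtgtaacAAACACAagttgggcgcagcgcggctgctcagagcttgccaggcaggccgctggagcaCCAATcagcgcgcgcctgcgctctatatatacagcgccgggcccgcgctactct
Hist1h2ap, chr13:21833508-21833725, minus strand: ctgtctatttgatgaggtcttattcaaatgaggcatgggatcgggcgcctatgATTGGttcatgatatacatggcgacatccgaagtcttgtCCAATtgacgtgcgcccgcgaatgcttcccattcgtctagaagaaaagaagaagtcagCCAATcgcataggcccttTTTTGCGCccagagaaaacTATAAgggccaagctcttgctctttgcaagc
Hist1h2bk, chr13:22035571-22035820, plus strand: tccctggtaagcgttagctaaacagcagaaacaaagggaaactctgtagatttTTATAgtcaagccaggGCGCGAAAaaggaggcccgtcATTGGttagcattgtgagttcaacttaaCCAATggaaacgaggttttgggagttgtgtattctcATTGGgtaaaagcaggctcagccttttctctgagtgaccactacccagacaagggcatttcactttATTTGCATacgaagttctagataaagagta
Hist1h3e, chr13:23562386-23562635, minus strand: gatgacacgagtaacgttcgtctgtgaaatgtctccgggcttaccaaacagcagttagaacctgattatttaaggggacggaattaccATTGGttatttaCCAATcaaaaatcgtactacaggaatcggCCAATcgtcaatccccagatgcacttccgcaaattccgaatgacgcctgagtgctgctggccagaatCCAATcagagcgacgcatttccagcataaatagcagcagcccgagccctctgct
Hist1h4k, chr13:21750554-21750803, minus strand: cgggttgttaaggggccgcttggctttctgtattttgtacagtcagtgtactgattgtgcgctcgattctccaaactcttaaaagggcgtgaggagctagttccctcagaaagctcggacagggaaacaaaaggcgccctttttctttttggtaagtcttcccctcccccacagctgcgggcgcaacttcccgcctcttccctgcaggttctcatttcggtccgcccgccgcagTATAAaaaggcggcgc

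TATAA stood in 64.7% of the 51 histone promoters and in 22.8% of all 32851 promoters of the same length. CCAAT stood in 84.3% against 33.8%, with all 5 H1, 15 H2A and 14 H2B promoters holding it, 7 of 8 of H3 and 2 of 9 of H4. The octamer, a site for OCT1, stood in 6 of 15 H2A and 4 of 14 H2B promoters and in 1.6% of all promoters. AAACACA stood in 4 of 5 H1 promoters and in 6.25% of all promoters. TTTNGCGC was in 4 H2A and 7 H2B promoters, 21.6% of the histone promoters against 1.13% of all. The YY1-type letters GCCATNTT stood in 4 of the 51 (7.84%) and in 3.91% of all promoters. Promoters of H2A and H2B genes that lie head to head can overlap, so the same site can count in both. This was so for the YY1-type letters of Hist1h2ae and Hist1h2bg, and for TTTNGCGC of Hist1h2an and Hist1h2bp. The counts are thus of promoters and not of separate sites. A match is a description of the letters and not of a bound site.

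The histone genes as a group were present at higher summed levels in the knockout libraries, but no member passed the test. Summed over the 59 genes, the wild type libraries held 1186, 1434 and 1346 RPKM and the knockout libraries 1949, 1859 and 2184. Every knockout library lay above every wild type library. The histone sum was 0.315% ± 0.0391 (SD, n = 3) of all RPKM in wild type, against 0.515% ± 0.0202 (SD, n = 3) in knockout. Hist1h2ap alone made up 12.4% ± 5.26 (SD, n = 3) of the histone sum in wild type and 20.9% ± 4.49 (SD, n = 3) in knockout. Over all 6 libraries the 6 most abundant members made up 50.6% of the mean sum. Without Hist1h2ap the library sums were 1111, 1219.7 and 1132 against 1633, 1462 and 1635, again with no overlap.

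Of the 59 members, 53 reached 1 RPKM in at least 3 libraries and were tested among 13179 genes. The other 6, Hist2h4, Hist3h2ba, Hist1h2bp, Hist1h2br, Hist1h4f and Hist1h4b, were near 0 in most libraries. By limma on log2(RPKM + 0.5), 0 of the 53 and 0 of the 13179 genes (0.0%) had an adjusted p under 0.05. limma-voom on recovered reads called 0 of 51 histone genes and 8 of 13114 genes (0.061%), and the authors' deposited table called 0 of 59 and 24 of 15553 genes (0.154%). At an unadjusted limma p under 0.05, 12 of the 53 were higher in knockout (22.6%; 4.73% of all tested genes) and 1 was lower (1.89%; 3.06% of all), 13 in all against 7.79% of all genes. The authors' deposited table had 9 of 59 at an unadjusted p under 0.05 (15.3%; 8.02% of its genes). The log2 fold change, with knockout over wild type as positive, was above 0 for 40 of the 53 (75.5%; 51.9% of all genes) and at least 1 for 22 (41.5%; 8.1% of all). It was at most -1 for 3 (5.66%; 4.77% of all). Its median over the 53 was 0.73, beside 0.02 over all tested genes. Over all 59 members without the filter the median was 0.59.

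In 12 of the 53 members all 3 knockout values lay above all 3 wild type values (22.6%; 7.63% of all genes), and in 0 did they all lie below (6.87% of all genes). These 12 were Hist1h1b, Hist1h1d and Hist1h1e of H1, Hist1h2ao, Hist1h2ap and Hist2h2aa2 of H2A, Hist1h2bg, Hist1h2bk and Hist1h2bm of H2B, and Hist1h3a, Hist1h3d and Hist1h3e of H3. No H4 gene was among them. The median depended on wild type replicate 3: without that library it was 0.37, with 40 of 53 above 0 (50.2% of all genes). Then 17 were clear with knockout higher (13.2% of all genes) and 3 with knockout lower, for which no share over all genes was computed. When the library labelled Yy1 knockout replicate 1 was left out, the median was 0.66, with 41 above 0 (53.1% of all genes) and 14 clear with knockout higher (11.6% of all genes).

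**Figure D1:**
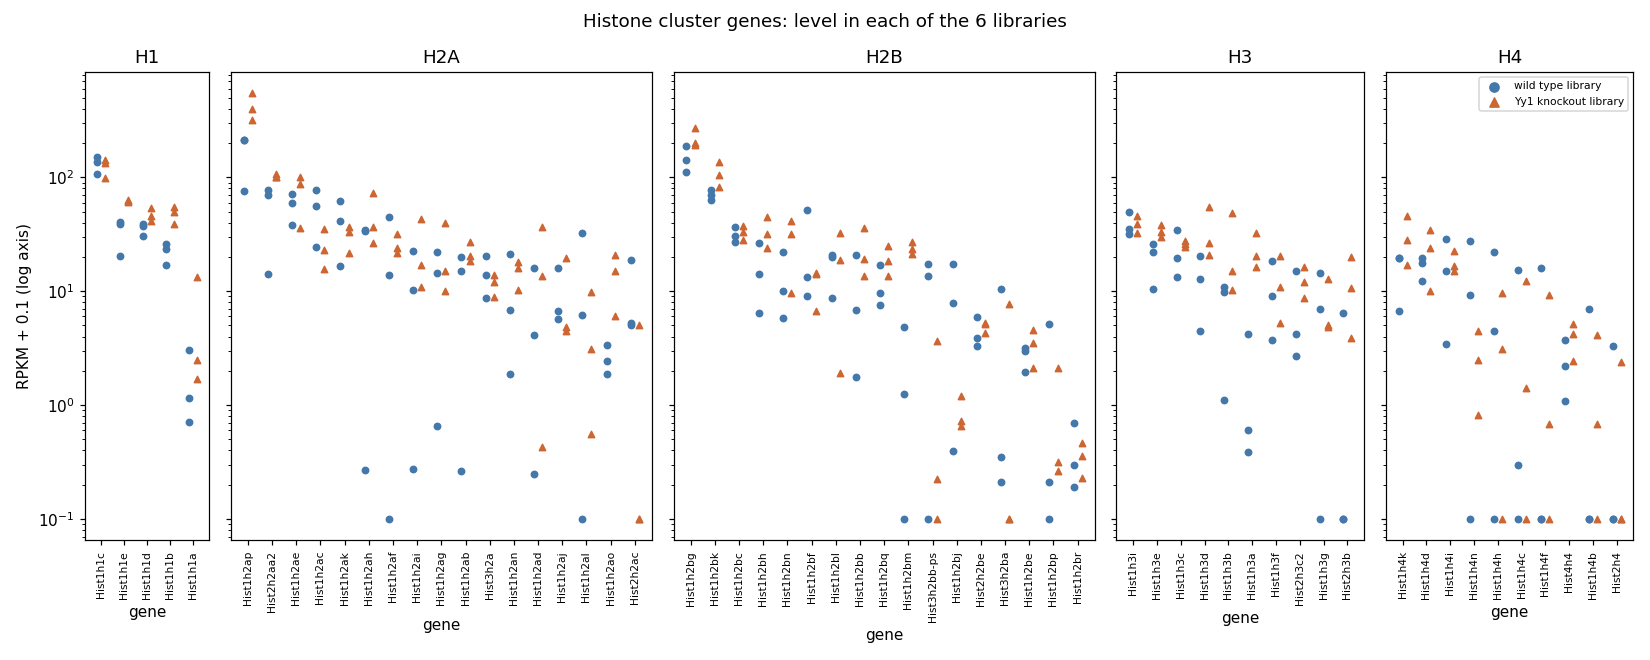
Level of each of the 59 histone cluster genes in each library, as RPKM + 0.1 on a log axis, by class and ordered by mean level; circles are the 3 wild type libraries and triangles the 3 Yy1 knockout libraries. Hist1h2ap is the most abundant gene, with knockout values of 316 to 549 RPKM above wild type values of 75.5 to 214, while many low genes scatter between near 0 and about 20 RPKM in both groups.

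The linker histones bind the DNA entering and leaving the nucleosome. In 3 of 5 members every knockout value lay above every wild type value (7.63% of all tested genes). The most abundant member was not among them. Summed H1 was 203, 230.3 and 238 RPKM in wild type, against 324, 278 and 260 in knockout, with no overlap. Hist1h1c (H1.2), the most abundant, was at 108, 135 and 152 RPKM against 143, 134 and 98.9. Its groups overlapped and its log2 fold change was -0.07 ± 0.21 (SE).

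Hist1h1b (H1.5; chr13:21779883-21780625) stood at 16.8, 23.6 and 25.9 RPKM in wild type, against 54.7, 38.9 and 49.7 in knockout. All 3 knockout values were above the wild type values, with a log2 fold change of 1.10 ± 0.24 (SE; limma adjusted p = 0.376). None of its 50-base windows occurs letter for letter in another annotated transcript. Copies with mismatches were not searched for. Hist1h1e (H1.4) was at 38.9, 40.4 and 20.2 RPKM against 60.3, 62.1 and 63.4, also without overlap (0.96 ± 0.28; adjusted p = 0.522; 0.64 without wild type replicate 3). Its model overlaps that of Hist1h2be, so reads of the 2 genes may be mixed. Hist1h1d (H1.3) was at 39.2, 30.4 and 37.5 against 53.5, 41.2 and 45.6, a log2 fold change of 0.38 ± 0.19. Hist1h1a (H1.1) was low, at 0.603 to 2.95 RPKM in wild type, with 13.1 in knockout replicate 1 and 1.60 and 2.39 in the others. The class median of 0.96 fell to 0.44 without knockout replicate 1 and to 0.64 without wild type replicate 3.

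H2A forms dimers with H2B in the nucleosome, and its difference in summed level rested largely on Hist1h2ap. The class sum was 442, 616 and 483 RPKM in wild type, against 749, 839 and 1002 in knockout, a log2 ratio of the means of 0.75. Without Hist1h2ap the sums were 366, 401 and 268 against 433, 441 and 453, a log2 ratio of 0.36. Hist1h2ap (chr13:21833026-21833507), the most abundant member, was at 75.5, 214 and 214 RPKM in wild type, against 316, 398 and 549 in knockout. These were 470, 1665 and 1528 reads against 2649, 3354 and 5171. Its groups did not overlap, and its log2 fold change was 1.43 ± 0.43 (SE; limma adjusted p = 0.528). It was 0.93 when wild type replicate 1 was left out. The authors' deposited table gave 1.4 with an adjusted p of 0.0514. Of its 50-base windows 93.1% occur in another annotated gene, counting Gm44466, which overlaps it. The level may belong in part to sister copies, which this share does not separate from the overlap.

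Hist1h2ao, which shares 93.5% of its windows, was much lower at 1.77, 2.33 and 3.24 RPKM against 5.99, 14.8 and 20.7 (log2 fold change 2.15 ± 0.51; adjusted p = 0.429). Every knockout value exceeded every wild type value. All windows of Hist2h2aa2 recur in the annotation, where 2 other genes overlap it. Hist2h2aa2 was at 78.1, 70.1 and 14.0 RPKM in wild type, against 101, 101 and 107 in knockout. Its log2 fold change of 1.26 ± 0.59 fell to 0.47 without wild type replicate 3. Hist1h2ae was at 38.0, 72.0 and 59.5 RPKM against 35.5, 88.1 and 100.4, with full overlap (0.31 ± 0.42).

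In H2A, 6 of 17 genes had a log2 fold change below 0. Hist1h2ac was at 24.2, 55.8 and 77.9 RPKM in wild type, against 15.7, 23.1 and 35.4 in knockout (log2 fold change -1.0 ± 0.46; adjusted p = 0.664), with overlapping groups; it was -0.64 without wild type replicate 3. Hist2h2ac was at 5.21, 18.6 and 4.94 RPKM against 0, 4.95 and 0, or 35, 156 and 38 reads against 0, 45 and 0 (-2.92 ± 1.03; adjusted p = 0.581). It was the member with an unadjusted p under 0.05 that was lower in knockout.

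Several H2A genes were at or near 0 in wild type replicate 3 alone among the wild type libraries. Hist1h2ah was at 34.0, 34.5 and 0.167 RPKM in wild type, Hist1h2ai at 10.2, 22.4 and 0.172, and Hist1h2af at 45.0, 13.8 and 0. Their knockout values were 26.4 to 72.1, 10.7 to 42.6 and 21.4 to 31.7 RPKM, and their groups overlapped. The H2A median log2 fold change was 1.06 over 17 genes, 0.05 without wild type replicate 3 and 1.62 without wild type replicate 2.

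H2B, the partner of H2A in the nucleosome's dimers, was higher in every knockout library when summed. The class sum was 312, 370.4 and 434 RPKM against 559, 451 and 586. Hist1h2bg was at 112, 141 and 190.3 RPKM in wild type, against 202, 194 and 269 in knockout (log2 fold change 0.60 ± 0.24; limma adjusted p = 0.619). Hist1h2bk was at 69.4, 63.6 and 77.3 against 137, 82.1 and 105 (0.59 ± 0.22; adjusted p = 0.589). Neither gene's groups overlapped. Hist1h2bc, the third most abundant, was at 30.6, 26.8 and 36.5 against 33.3, 28.3 and 37.2, with a log2 fold change of 0.07 ± 0.21.

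Hist1h2bm had the largest log2 fold change of the tested members, at 0, 1.14 and 4.79 RPKM in wild type, against 27.1, 21.2 and 23.5 in knockout. Its log2 fold change was 3.90 ± 0.78 (adjusted p = 0.323) and depends on the constant added before the log, being 4.82 with 0.1 and 3.42 with 1. Hist1h2bh was at 6.38, 26.4 and 14.1 RPKM against 44.9, 32.0 and 23.7, overlapping by 1 library (1.24 ± 0.49; adjusted p = 0.619), and its log2 fold change was 0.73 without wild type replicate 1. Hist1h2bj had 17.2, 7.77 and 0.292 RPKM in wild type, against 0.553 to 1.11 in knockout. The H2B median was 0.43 over 14 tested genes and 0.18 over all 17.

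H3 was the class in which every member had a log2 fold change above 0, 10 of 10 (51.9% of all tested genes). Its median was 0.98. The class sum was 123, 134 and 128 RPKM in wild type, against 209, 185 and 274 in knockout. The most abundant H3 gene, Hist1h3i, did not share in this: it was at 31.4, 35.2 and 49.9 RPKM against 45.7, 39.2 and 32.3 (log2 fold change 0.02 ± 0.24). Its sign turned when wild type replicate 1 or 2 or knockout replicate 1 was left out. Hist1h3c, at 34.3, 19.4 and 13.3 against 27.6, 25.7 and 24.2, also overlapped (0.31 ± 0.34).

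Hist1h3a (chr13:23761853-23762386) was at 0.290, 4.07 and 0.507 RPKM in wild type, against 20.2, 16.1 and 32.6 in knockout. In reads these were 2, 35 and 4 against 188, 150 and 340. The groups lay far apart, with a log2 fold change of 3.87 ± 0.69 and the lowest limma adjusted p of the family, 0.273. Hist1h3d was at 12.7, 20.4 and 4.35 RPKM against 20.5, 26.2 and 54.7 (1.51 ± 0.58; 0.92 without wild type replicate 3), where the nearest values of the groups differed by little. Hist1h3e was at 10.4, 25.8 and 21.8 against 32.9, 29.8 and 37.8 (0.87 ± 0.34; adjusted p = 0.619), and its log2 fold change was 0.48 without wild type replicate 1. Hist2h3b was at 0, 6.36 and 0 against 10.6, 3.75 and 19.9 with overlap (3.04 ± 1.11; adjusted p = 0.589), and all of its windows recur in another gene. Gm20628, which is annotated over it, counts as such a gene.

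H4, which pairs with H3 in the nucleosome's core, did not share the difference in summed level. Its class sum was 106, 83.8 and 63.4 RPKM in wild type, against 107, 106 and 61.9 in knockout, so the groups overlapped fully. Of 10 genes 7 were tested, 5 had a log2 fold change above 0, and the median was 0.36. The sign of that median turned on 1 library: it was -0.07 when knockout replicate 2 was left out, 0.12 when wild type replicate 3 was, and 0.81 when knockout replicate 3 was. Without Hist1h4k, the most abundant H4 gene, the log2 ratio of the mean class sums went from 0.12 to -0.17. Hist1h4k was at 19.6, 6.56 and 19.3 RPKM against 45.9, 27.8 and 16.9 (1.01 ± 0.50; limma adjusted p = 0.689), and leaving out wild type replicate 2 gave 0.51 and leaving out knockout replicate 1 gave 0.65. Hist1h4d was at 19.3, 17.7 and 12.2 against 23.7, 34.6 and 9.90 (0.32 ± 0.45), and Hist1h4i at 15, 28.6 and 3.35 against 16.6, 15 and 22.4 (0.60 ± 0.67; -0.22 without wild type replicate 3). All 3 of these most abundant H4 genes overlapped between genotypes. The median coefficient of variation between wild type libraries was 124% for H4 genes, against 21.6% for H1 and 73.7% for H3. Differences between classes were not tested.

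**Figure D2:**
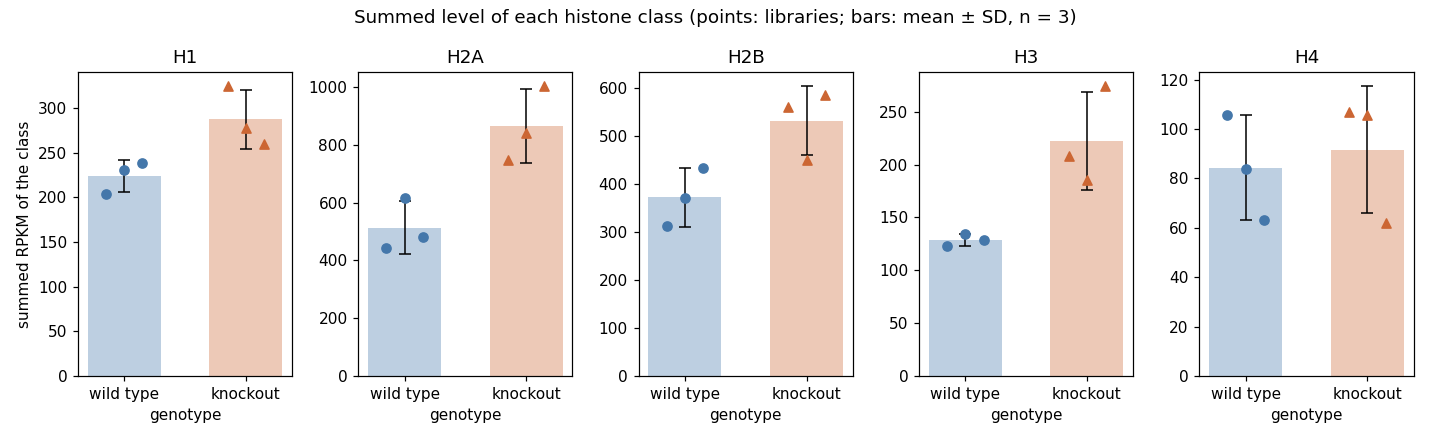
Summed RPKM of each histone class by genotype; bars are means, error bars SD (n = 3 libraries) and points the libraries, each panel with its own axis from 0. The knockout libraries lie above the wild type libraries for H1, H2A, H2B and H3, and the groups overlap for H4 (84.4 ± 21.3 against 91.6 ± 25.7 RPKM).

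**Figure D3:**
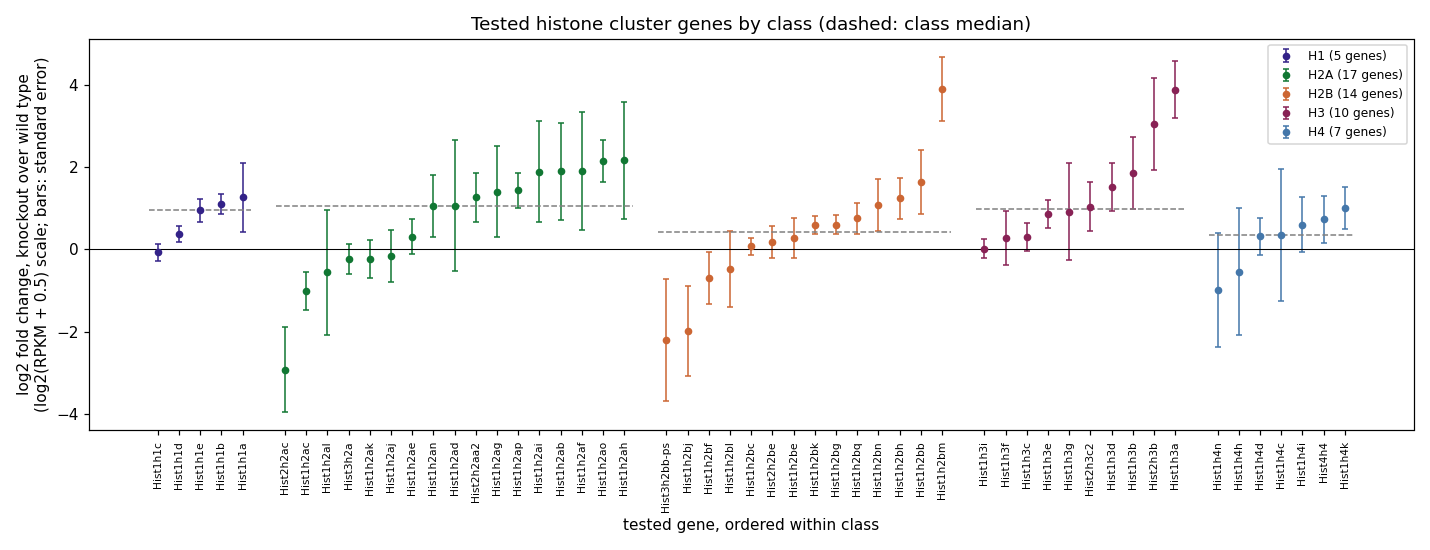
Knockout over wild type as log2 fold change for the 53 tested histone genes, ordered within class, with standard errors as bars and class medians as dashed lines. Medians run from 0.36 (H4) and 0.43 (H2B) to 0.98 (H3) and 1.06 (H2A), and the extremes are Hist1h2bm at 3.90 and Hist2h2ac at -2.92.

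Abundant members varied less between libraries. In the 21 members with a mean of at least 20 RPKM, the median coefficient of variation was 47.7% in wild type and 20.9% in knockout, and 18 of the 21 had a log2 fold change above 0, with a median of 0.87. In the 32 tested members under 20 RPKM the median was 0.67 and 22 were above 0. Of all tested genes, 51.9% were above 0. Values under 1 RPKM were found for 11, 5 and 19 members in the wild type libraries and for 7, 5 and 12 in the knockout libraries.

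Near-identical copies limit what can be said of single genes. Of the 59 members, 56 share at least 1 window of 50 bases with another annotated gene and 30 share over 50% of their windows. A gene annotated over the same stretch counted as another gene. Such overlaps occurred in 21 members, among them every H2A gene but of H1 only Hist1h1e. The shares thus do not separate overlapping genes from copies elsewhere. The median share was 2.25% for H1 and 78.9% for H2A. The 25 tested members with at most 50% shared windows had a median log2 fold change of 0.36, with 20 above 0 and 7 clear of overlap. The 28 with more had a median of 1.02, with 20 above 0 and 5 clear. The 6 tested members with at most 10% shared windows, counted among the 25, had a median of 0.56, with 5 above 0 and 2 clear. Of all tested genes, 51.9% were above 0 and 7.63% were clear with knockout higher.

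Members were also grouped by where the annotated model ends relative to the stem-loop, since polyadenylated forms run past it. The 18 tested genes whose model ends within 100 bases of the stem-loop had a median log2 fold change of 1.16. Of these, 13 were above 0 and 6 were clear of overlap with knockout higher. The 17 whose model runs further had a median of 0.38, with 14 above 0 and 5 clear. The 18 with no match in the model had a median of 0.88, with 13 above 0 and 1 clear. Among all tested genes, 51.9% were above 0 and 7.63% were clear with knockout higher. A list of 6 genes with polyadenylated forms, taken from background knowledge, had 5 tested members: Hist1h1c (-0.07), Hist1h2ac (-1.0), Hist1h2bc (0.07), Hist2h2be (0.18) and Hist3h2a (-0.23). Their median log2 fold change was -0.07 and in none were the genotypes clear of each other. The models of Hist1h2bc and Hist2h2be hold no stem-loop match, so the grouping by model does not follow this list. Hist2h2be was at 3.22, 5.83 and 3.77 RPKM against 5.11, 5.02 and 4.18, and Hist3h2a at 8.62, 13.8 and 20.3 against 13.8, 12.0 and 8.85. Hist3h2ba, the last of the list, was above 1 RPKM in 1 wild type and 1 knockout library only, at 10.3 and 7.67.

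**Figure D4:**
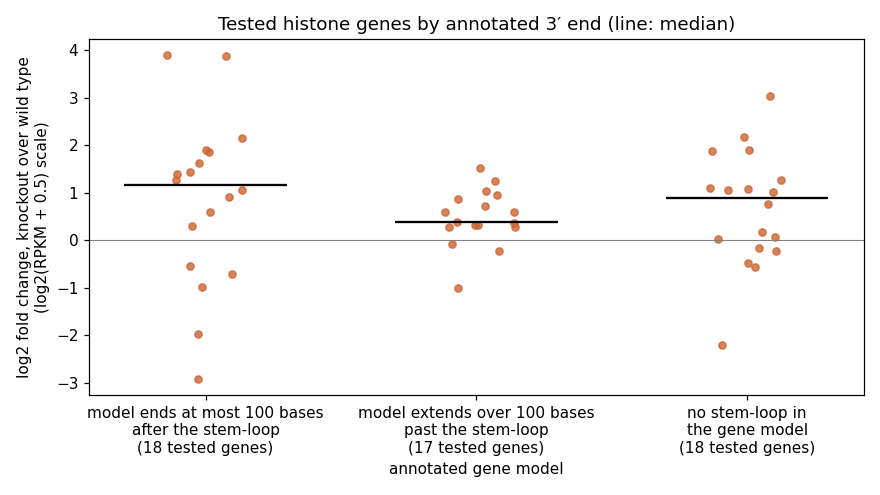
Log2 fold change of the 53 tested histone genes by where their annotated model ends; points are genes, spread sideways for legibility, and lines are medians. Genes ending at the stem-loop have a median of 1.16 and range from -2.92 to 3.90, and genes running past it have a median of 0.38 and range from -1.0 to 1.51.

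Within the Hist1 cluster, values are given by block. The 14 tested genes of the proximal block (chr13:21715763-21837530) had a median log2 fold change of 1.03, the 5 of the middle block (chr13:22035164-22043676) 0.60, and the 25 of the distal block (chr13:23531050-23764406) 0.60. Many H2A and H2B genes lie head to head and share the stretch between them as promoter. Among members whose gene model gave a strand, 12 such pairs had starts within 500 bases, and 10 of them had both genes tested. In 3 of these both log2 fold changes were above 0, in 6 the signs were opposite, and in 1 both were below 0. Hist1h2ac and Hist1h2bc were such a pair, at -1.0 and 0.07, as were Hist1h2ae and Hist1h2bg, at 0.31 and 0.60. Hist1h2bm and Hist1h2bh had no strand in the models and were left out of these counts. By its promoter entry Hist1h2bm lies on the plus strand, from chr13:21722044. It faces Hist1h2aj on the minus strand, which ends at chr13:21721808. The log2 fold changes of these neighbours were 3.90 and -0.16.

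None of the tested factors that transcribe, process or degrade histone messages passed. Of 11 genes of histone transcription, 11 were tested, 0 passed and 9 had a log2 fold change above 0 (51.9% of all tested genes). Their median was 0.19. NPAT's gene Npat was at 14.3, 10.8 and 6.66 RPKM against 8.42, 12.7 and 10.5 (0.04 ± 0.35), and Casp8ap2, its partner in histone locus bodies, at 8.48, 14.7 and 10.1 against 10.2, 13.2 and 13.7 (0.18 ± 0.30). Ccna2, the S-phase and G2 cyclin, was at 11.6, 8.04 and 6.64 against 26.5, 16.8 and 11.2 (0.96 ± 0.38; limma adjusted p = 0.618).

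Of 18 processing genes 16 were tested, 0 passed, and 8 lay on each side of 0. Slbp, the stem-loop binding protein, was at 19.0, 22.2 and 22.7 RPKM in wild type, against 25.9, 24.5 and 35.3 in knockout, without overlap (0.40 ± 0.22; adjusted p = 0.720). Of 12 decay and translation genes 0 passed and 5 were above 0. Eri1, the exonuclease that trims the stem-loop, was at 19.6, 23.2 and 20.6 against 28.1, 26.4 and 36.6, also without overlap (0.50 ± 0.21; adjusted p = 0.631).

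Replacement histones are made outside S phase as well, many but not all from intron-bearing genes whose messages have poly(A) tails. Of 11 listed, 10 were tested, 0 passed, and 8 had a log2 fold change above 0 (51.9% of all tested genes). Their median was 0.43. Cenpa, the centromeric H3, was at 13.3, 7.05 and 8.86 RPKM against 21.3, 19.8 and 19.8 (1.07 ± 0.28; limma adjusted p = 0.451). H2afz was at 84.7, 84.2 and 52.0 against 125, 106 and 131 (0.74 ± 0.23), and H1f0, the replacement linker histone, at 67.5, 69.2 and 51.8 against 74.2, 88.7 and 108 (0.51 ± 0.21). These 3, and H2afv with them, were the 4 clear of overlap, each with knockout higher (7.63% of all tested genes). H3f3b, the most abundant replacement H3 gene, was at 442, 427 and 307 against 312, 455 and 369.7 (-0.05 ± 0.22).

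The histone genes were also set beside other cell cycle genes. Of 20 replication genes 0 passed and 19 had a log2 fold change above 0, with a median of 0.53, and 10 were clear of overlap with knockout higher. Of 15 mitosis genes 0 passed and 15 were above 0, with a median of 1.45 and 14 clear. Of all tested genes, 51.9% were above 0 and 7.63% were clear with knockout higher. Fen1 was at 21.3, 31.5 and 18.9 RPKM against 50.4, 48.1 and 55.4, and Kif11, a spindle motor, at 14.6, 14.5 and 15.2 against 41.7, 40.4 and 39.7. The medians of these lists and of the histone genes were not tested against each other. The lists were chosen with earlier results of these data known.

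**Figure D5:**
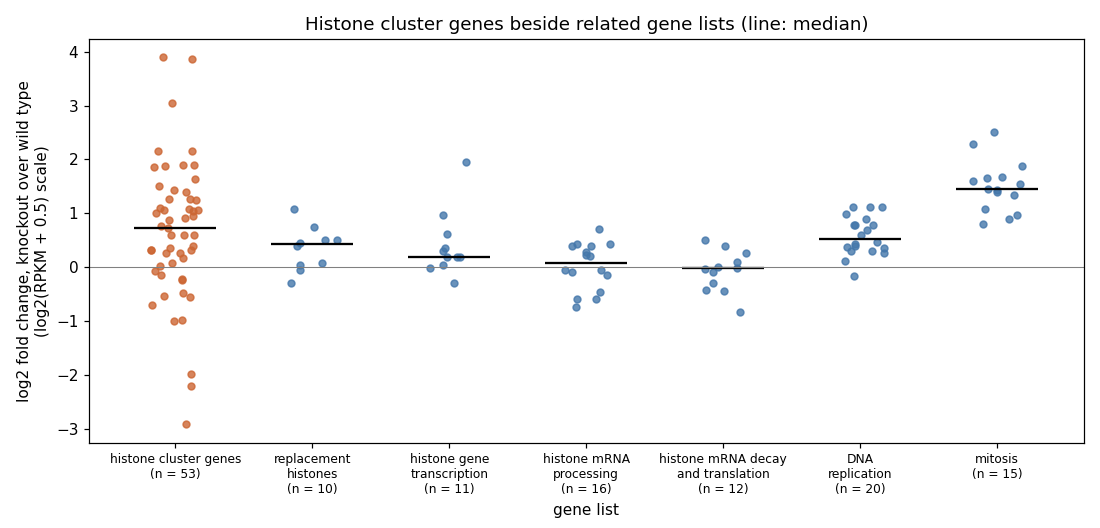
Knockout over wild type as log2 fold change for the tested histone cluster genes and 6 related gene lists; points are genes, spread sideways for legibility, and lines are medians. The histone genes have a median of 0.73 and the widest spread, beside medians of 0.43 for replacement histones, 0.19 for histone transcription, 0.53 for replication and 1.45 for mitosis.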

How the data were processed

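RNA from sorted stem cells was amplified (NuGen Ovation RNA-Seq System V2) and sequenced on an Illumina HiSeq, per the labels' protocols. The authors' tools were Subread, featureCounts, edgeR and limma on mm10, per the submitters' processing notes, which give no versions. The deposited values are RPKM by their size and read steps. With annotated gene lengths, 71.8% of genes gave whole reads in all 6 libraries, within 0.02 reads, as did 38 of 57 histone genes. For reads matching several copies, and for strand, the authors' counting settings are not stated in the labels. The authors' deposited table also holds log2 fold changes and p-values.

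limma 3.58.1 (R 4.3.3) was fitted with a variance trend to log2(RPKM + 0.5) of genes reaching 1 RPKM in 3 or more libraries, with Benjamini-Hochberg adjustment over all genes. It was also run on simulated reads with known changes. The share recovered is not reported here, so the lack of passing genes is not to be read as a lack of change. Fold changes of low genes are understated by the constant. limma-voom on recovered reads, other constants, filters and scalings, a replicate block and leaving out each library were alternatives. Gene models and stem-loops came from GENCODE M21 and promoters from RefSeq. M21 names 11 further Hist genes, not analysed here. The members and lists were chosen with earlier results of these data known. Named genes are the 3 most abundant of each class, those with an unadjusted p under 0.05, those clear of overlap, those with polyadenylated forms and, of each related list, those with the lowest p values, besides Slbp, Npat and Casp8ap2. Hist1h1a, Hist1h2af, Hist1h2ah, Hist1h2ai, Hist1h2bj and H3f3b were added after their values were seen.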

Additional observations from a re-analysis of the deposited data

How the results depend on the processing

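No histone gene passed under any RPKM alternative. The median log2 fold change of the tested histone genes, 0.73, was 0.94 with a filter of 5 RPKM, 0.94 over members with whole reads and 0.49 with limma-voom and a replicate block; these last 2 were added after seeing the data. Leaving out each library gave 0.37 to 0.81, and 0 to 1 genes passing. limma-voom on recovered reads called 8 genes, and with a replicate block 72 of 13114 genes (0.549%), among them 1 histone gene of 51, Hist1h2ap (1.31; adjusted p = 0.0125). The limma fit with a replicate block called 0 genes and 0 histone genes with a median of 0.73. Same-numbered libraries correlated at 0.0152, 0.0593 and 0.0467 in their deviations from the group means, and other pairs at -0.0758 to 0.0353. Each knockout library correlated most with the wild type library of its number, but wild type replicate 1 correlated most with knockout replicate 2 (0.0353). Values this small cannot tell whether the numbers pair the samples.

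Without the most abundant member, the log2 ratio of the mean sums went from 0.60 to 0.45 for all classes, 0.36 to 0.81 for H1, 0.75 to 0.36 for H2A, 0.52 to 0.47 for H2B, 0.79 to 1.03 for H3 and 0.12 to -0.17 for H4. The sign of these genes turned when 1 library was left out: Hist1h3i (-0.11 to 0.21), Hist1h2bc (-0.03 to 0.19), Hist1h1c (-0.21 to 0.09), Hist1h3c (-0.0026 to 0.67), Hist1h4i (-0.22 to 1.24), Hist3h2a (-0.54 to 0.05), Hist1h4d (-0.07 to 0.81) and Npat (-0.25 to 0.28). Hist1h3i was -0.02 with limma-voom and a replicate block, and Npat -0.0012 with quantile normalization. The cause was not tested. Wild type replicate 3 had 19 members under 1 RPKM against 11 in wild type replicate 1. The library sizes from read steps were 14786847 for wild type replicate 3 and 12920190 for wild type replicate 1.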
